A study of Mus musculus with 29 samples.

Results

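Brown adipocytes are the heat-producing fat cells of mammals. Noradrenaline from sympathetic nerves acts on the β3-adrenergic receptor, cyclic AMP rises, stored lipid is broken down, and the fatty acids both feed the mitochondria and open the uncoupling protein UCP1, which lets protons return across the inner membrane without making ATP. A set of transcription factors and coactivators gives the cell this identity and turns the thermogenic genes on. The 10 genes described here cover these roles: Ucp1 itself, the receptor gene Adrb3, the thyroid hormone activating deiodinase Dio2, the transcriptional regulators Prdm16, Ebf2 and Zfp516, the coactivators Ppargc1a and Ppargc1b, the lipid droplet protein gene Cidea and the fatty acid elongase gene Elovl3. They were found by symbol in the deposited table, and all 10 of them were present among its 24770 gene symbols.

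The mice were wild-type C57BL/6J males, 8 weeks old when the 8 weeks of intervention began. Control mice were sedentary and ate freely, CR mice were sedentary and ended at 70% of free intake, EX mice ate freely and ran on a treadmill, and CREX mice had both interventions. All mice were fasted for 6 h before tissue was taken, and runners were sampled 24 h after the last run. RNA-seq libraries covered brown adipose tissue (BAT) (3 control, 4 CR, 4 EX and 4 CREX libraries) and gastrocnemius skeletal muscle (SkM; 4 control, 3 CR, 4 EX and 3 CREX libraries). The BAT depot, whether each library came from 1 mouse and whether a BAT and a SkM library came from 1 mouse are not given in the sources used here.

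The deposited values are expected counts per gene, and levels are given as CPM, counts scaled to library size with TMM normalisation. Libraries held 21047242 to 24919377 counts in BAT and 23050918 to 23425284 in SkM, so that 3 counts stood at 0.118 to 0.142 and at 0.115 to 0.140 TMM-normalised CPM, respectively, which covers counting error only. The tissue labels were checked against marker genes. The 7 general adipocyte markers (Adipoq, Plin1, Fabp4, Cidec, Lipe, Pnpla2 and Pparg) summed to 11655 to 14931 CPM over the 15 BAT libraries, and the 15 muscle fibre markers to 130622 to 210941 CPM over the 14 SkM libraries. The same muscle fibre markers were present in every BAT library but at very unequal levels, from 49.3 CPM in 1 control library to 7676 CPM in 1 CREX library. A DEG is a gene with a Benjamini-Hochberg adjusted p under 0.05 over all genes tested and a fold change above 1.5 in edgeR's quasi-likelihood test.

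The start regions of the genes frame the expression data, because cyclic AMP signalling reaches its target genes through short response elements. RefSeq windows on GRCm38.p6, from 250 bases before to 50 bases after the annotated start, were matched for 4 of the 10 members. They are shown for Ucp1 (chr8:83290098-83290397, plus strand), Ppargc1a (chr5:51567676-51567975, minus strand), Dio2 (chr12:90738989-90739288, minus strand) and Prdm16 (chr4:154636824-154637123, minus strand), which hold the uncoupler, its best known coactivator, the deiodinase and the identity factor with the largest response to CR. Each is written 5′ to 3′ on the strand of its gene. Capitals mark matches on either strand to 4 motifs. TGACG, with its reverse complement CGTCA, is the core of the cyclic AMP response element. AGGTCA is the repeat unit of nuclear receptor elements, TATAAA is the core promoter box that places the start, and GGGCGG is the element of Sp1 factors.
Ucp1: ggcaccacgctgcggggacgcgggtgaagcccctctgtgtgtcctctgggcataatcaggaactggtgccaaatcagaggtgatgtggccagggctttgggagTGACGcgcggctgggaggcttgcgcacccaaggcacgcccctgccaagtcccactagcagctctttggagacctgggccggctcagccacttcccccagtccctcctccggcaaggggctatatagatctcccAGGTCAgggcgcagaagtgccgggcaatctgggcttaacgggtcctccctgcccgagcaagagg
Ppargc1a: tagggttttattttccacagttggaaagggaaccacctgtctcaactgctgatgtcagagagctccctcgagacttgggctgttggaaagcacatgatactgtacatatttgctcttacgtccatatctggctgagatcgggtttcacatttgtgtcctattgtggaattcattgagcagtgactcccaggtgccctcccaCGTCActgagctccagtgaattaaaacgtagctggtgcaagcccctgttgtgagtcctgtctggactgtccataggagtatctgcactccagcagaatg
Dio2: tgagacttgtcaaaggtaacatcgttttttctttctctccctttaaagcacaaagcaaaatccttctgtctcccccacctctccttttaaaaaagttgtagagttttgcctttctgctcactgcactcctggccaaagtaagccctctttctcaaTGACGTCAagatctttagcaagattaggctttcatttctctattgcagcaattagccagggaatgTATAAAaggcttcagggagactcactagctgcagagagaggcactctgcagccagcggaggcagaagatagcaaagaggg
Prdm16: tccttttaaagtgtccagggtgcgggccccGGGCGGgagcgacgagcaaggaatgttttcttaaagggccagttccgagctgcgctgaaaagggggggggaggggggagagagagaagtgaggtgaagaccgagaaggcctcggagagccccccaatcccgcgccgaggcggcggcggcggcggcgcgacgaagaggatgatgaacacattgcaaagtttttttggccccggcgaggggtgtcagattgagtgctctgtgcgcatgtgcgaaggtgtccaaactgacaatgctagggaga

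The TGACG core was found at position -147 from the start in Ucp1, as CGTCA at position -49 in Ppargc1a, and on both strands at positions -95 and -92 in Dio2, where the matches overlap as the full palindrome. It was not found in the Prdm16 window, whose GGGCGG match lay at position -220. The Ucp1 window also held AGGTCA at position -14 and the Dio2 window TATAAA at position -30. Such short motifs are common: on either strand TGACG occurred in 20.8% of all 32851 RefSeq start windows, AGGTCA in 16.3%, TATAAA in 13.6% and GGGCGG in 35.7%. The palindrome CCCNNGGG, a core of the EBF element, occurred in 13.7% of windows and in none of these 4. These matches describe letters and not bound sites.

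Ucp1 was among the most abundant transcripts of control BAT, and CR lowered it by about 2-fold whether or not the mice had run. Its level was 3841, 4750 and 4200 CPM in the control libraries and 2063, 1887, 2583 and 1871 CPM in the CR libraries. It was 3878, 4073, 3248 and 2954 CPM in the EX libraries and 1373, 2424, 1433 and 1924 CPM in the CREX libraries. Every library of a restricted mouse lay below every library of a freely fed mouse. By group, Ucp1 stood at 4264 ± 458 CPM in control (SD, n = 3), 2101 ± 333 in CR (n = 4), 3539 ± 525 in EX (n = 4) and 1788 ± 490 in CREX (n = 4). As a share of all counts it took 0.390 to 0.480% in control, 0.185 to 0.255% in CR, 0.306 to 0.423% in EX and 0.138 to 0.229% in CREX, and its rank among all genes went from 15 to 17 in control and from 17 to 21 in EX to 29 to 35 in CR and 32 to 50 in CREX.

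Ucp1 was a downregulated DEG in CR against control, with a log2 fold change of -1.02 (SE 0.12, edgeR adjusted p = 7.2e-04), and in CREX against EX, with -0.99 (SE 0.19, adjusted p = 0.019). The second call was close to the threshold: without EX replicate 2 the log2 fold change was -0.91 and the adjusted p 0.058, and without the filter on low counts it was -0.98 and 0.051. Averaged over sedentary and trained mice in 1 fit of all 15 BAT libraries, the effect of CR was -1.01 (SE 0.13, adjusted p = 8.3e-05). The 2 responses differed by 0.03 on the log2 scale (SE 0.26, adjusted p = 0.988 for the interaction of CR and EX). In bulk tissue, a lower level of a transcript per cell and fewer cells that carry it cannot be told apart.

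Ucp1 was also lower when set against the general adipocyte markers. Its log2 level relative to the mean log2 level of the 7 markers differed by -0.96 in CR against control and by -1.04 in CREX against EX, and the groups did not overlap in either. The adipocyte markers themselves summed to 12644 to 13680 CPM in control, 13940 to 14931 in CR, 11655 to 13732 in EX and 12636 to 14179 in CREX, with a median log2 fold change of -0.03 under CR in sedentary mice and -0.05 in trained mice. Of these 7 genes, Plin1, which encodes the lipid droplet coat protein perilipin 1 and was named after its value was seen, was a downregulated DEG in CR against control (log2 fold change -0.67, adjusted p = 0.0030).

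**Figure D1:**
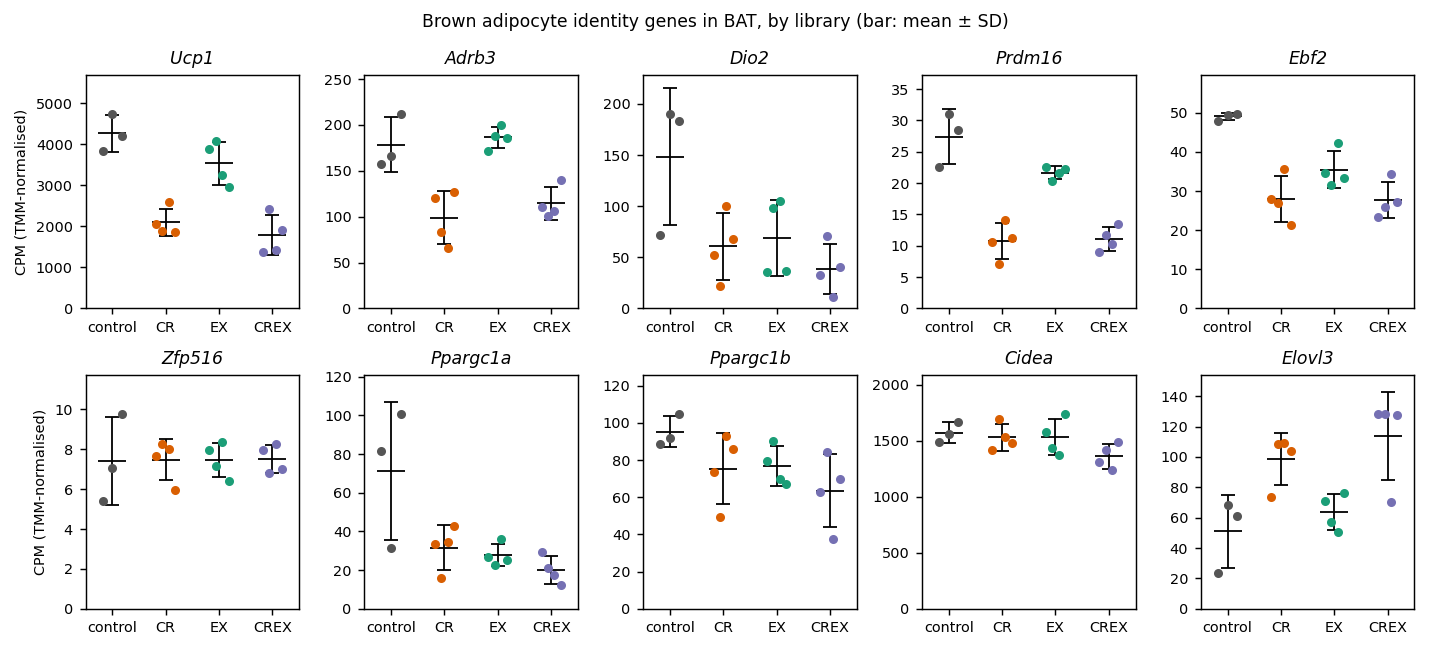
TMM-normalised CPM (y axis, linear from 0, a separate scale per gene) of the 10 brown adipocyte identity genes in the control, CR, EX and CREX groups of BAT; each point is 1 library and the bars give mean ± SD. Ucp1 and Prdm16 separate freely fed from restricted mice in every library, Adrb3 does so too, Elovl3 means are higher in restricted mice, and Zfp516 overlaps across all groups, while Cidea in control (from 1490 CPM) lies just above CREX (up to 1487 CPM).

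Adrb3 encodes the β3-adrenergic receptor through which noradrenaline starts thermogenesis (chr8:27225776-27250616, minus strand, GRCm38). It measured 157, 166 and 212 CPM in the control libraries against 120, 83.0, 66.2 and 127 CPM in CR. The EX libraries held 171, 188, 200 and 186 CPM and the CREX libraries 111, 101, 106 and 140 CPM. The restricted and the freely fed groups did not overlap. Adrb3 was a downregulated DEG in CREX against EX (log2 fold change -0.71, SE 0.11, adjusted p = 0.0051) and in the averaged CR effect (-0.78, SE 0.13, adjusted p = 7.1e-04). In CR against control the log2 fold change was of similar size, -0.85 (SE 0.25), but the adjusted p of 0.060 missed the threshold; it was 0.038 without CR replicate 3, 0.045 without CR replicate 4 and 0.013 with DESeq2. EX alone left Adrb3 at 186 ± 11.8 CPM (SD, n = 4) beside 179 ± 29.6 CPM in control (n = 3).

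Dio2 converts thyroxine to active triiodothyronine inside brown adipocytes, a step that amplifies the response to noradrenaline. It was the most variable member, with a coefficient of variation of 72.0% over the 15 BAT libraries. Its libraries held 71.5, 191 and 184 CPM in control, 52.7, 21.8, 100 and 68.2 in CR, 36.1, 97.9, 105 and 37.0 in EX and 33.0, 70.5, 11.6 and 40.8 in CREX. The groups overlapped in each comparison. The log2 fold change was -1.29 (SE 0.61, adjusted p = 0.199) in CR against control and -0.84 (SE 0.64, adjusted p = 0.466) in CREX against EX, and the averaged CR effect of -1.06 (SE 0.45) had an adjusted p of 0.092 (0.048 with DESeq2).

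Among the transcriptional regulators, Prdm16 and Ebf2 were lower under CR and Zfp516 was level. PRDM16 is a zinc finger coregulator that holds brown adipocytes in their identity and represses muscle and white fat genes. It is expressed at a low level: 22.6, 31.1 and 28.5 CPM in the control libraries against 10.6, 7.05, 14.1 and 11.3 in CR. The EX libraries held 22.5, 20.3, 21.6 and 22.2 CPM and the CREX libraries 9.02, 11.7, 10.2 and 13.5. As for Ucp1, every library of a restricted mouse lay below every library of a freely fed mouse. Prdm16 was a downregulated DEG in CR against control (log2 fold change -1.35, SE 0.21, adjusted p = 0.0050), in CREX against EX (-0.97, SE 0.12, adjusted p = 0.0021) and in the averaged CR effect (-1.16, SE 0.12, adjusted p = 1.3e-05), and it stayed a DEG in each of the 17, 17 and 23 alternative settings tried.

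EBF2 marks brown preadipocytes and mature brown adipocytes and recruits PPARγ to brown fat genes (chr14:67233292-67430918, plus strand, GRCm38). Its 3 control libraries were nearly equal at 48.0, 49.5 and 49.8 CPM, and the CR libraries held 28.0, 27.0, 35.6 and 21.4. The EX libraries held 34.6, 31.6, 42.3 and 33.4 CPM and the CREX libraries 23.5, 25.9, 34.3 and 27.1. Control stood above all 3 other groups without overlap, whereas EX and CREX overlapped. Ebf2 was a downregulated DEG in CR against control (log2 fold change -0.81, SE 0.14, adjusted p = 0.0058), and in CREX against EX its log2 fold change was -0.36 (SE 0.13, adjusted p = 0.119). The difference between these 2 responses, 0.45 on the log2 scale (SE 0.21), had an adjusted p of 0.871. The averaged CR effect was -0.59 (SE 0.11, adjusted p = 8.9e-04), a fold of 1.502 that sits on the 1.5-fold limit and drops below it in 11 of 23 alternative settings, among them those without CR replicate 2 (-0.58), CR replicate 4 (-0.53), control replicate 3 (-0.58), CREX replicate 1 (-0.55), CREX replicate 2 (-0.57), CREX replicate 4 (-0.58) and EX replicate 3 (-0.54).

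Zfp516 encodes a zinc finger factor that binds the Ucp1 promoter and is known to respond to cold. It held 7.43 ± 2.20 CPM in control (SD, n = 3), 7.47 ± 1.03 in CR, 7.46 ± 0.862 in EX and 7.51 ± 0.712 in CREX (n = 4 each). The range over the 15 BAT libraries was 5.42 to 9.78 CPM. The log2 fold change was 0.01 (SE 0.20, adjusted p = 0.984) in CR against control and 0.00 (SE 0.12, adjusted p = 0.990) in CREX against EX.

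The coactivators Ppargc1a and Ppargc1b encode PGC-1α and PGC-1β, which raise mitochondrial gene transcription, and PGC-1α is induced by cyclic AMP. Ppargc1a measured 81.5, 31.5 and 101 CPM in the control libraries, so that control replicate 2 lay within the CR and EX ranges. It measured 33.5, 15.7, 34.6 and 42.9 CPM in CR, 26.6, 22.7, 36.0 and 25.4 in EX and 29.5, 21.1, 17.5 and 12.4 in CREX. The log2 fold change was -1.17 (SE 0.51, adjusted p = 0.172) in CR against control and -0.47 (SE 0.27, adjusted p = 0.321) in CREX against EX. The averaged CR effect of -0.82 (SE 0.28) just passed the threshold with an adjusted p of 0.044. That call was lost in 14 of 23 alternative settings. Leaving out CR replicate 1, 2 or 3 gave adjusted p of 0.065, 0.064 and 0.058, control replicate 1 or 3 gave 0.093 and 0.115 (the latter at -0.65), CREX replicate 2, 3 or 4 gave 0.064, 0.076 and 0.076, and EX replicate 1, 2, 3 or 4 gave 0.062, 0.054, 0.084 and 0.057.

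Ppargc1b ranged from 88.9 to 105 CPM in control (3 libraries), 49.2 to 93.1 in CR, 66.9 to 90.5 in EX and 37.6 to 84.3 in CREX (4 libraries each). It was not a DEG in any BAT comparison, with log2 fold changes of -0.34 (SE 0.20, adjusted p = 0.281) in CR against control and -0.28 (SE 0.23, adjusted p = 0.495) in CREX against EX.

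Cidea and Elovl3 are lipid genes of the brown adipocyte. CIDEA promotes the growth of lipid droplets in brown fat, and Cidea is a classical marker of the tissue. It was the steadiest abundant member, at 1235 to 1739 CPM over the 15 BAT libraries with a coefficient of variation of 9.38%. Its group means were 1572 ± 91.2 CPM in control (SD, n = 3), 1531 ± 119 in CR, 1532 ± 164 in EX and 1363 ± 112 in CREX (n = 4 each), and the log2 fold change was -0.04 (SE 0.08, adjusted p = 0.764) in CR against control and -0.17 (SE 0.09, adjusted p = 0.260) in CREX against EX.

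ELOVL3 lengthens very long chain fatty acids and is strongly induced in brown fat in the cold (chr19:46131897-46135694, plus strand, GRCm38). It measured 23.6, 68.3 and 61.3 CPM in control and 73.3, 108, 109 and 104 in CR, without overlap. It measured 71.2, 56.9, 50.9 and 76.0 CPM in EX and 128, 128, 70.1 and 128 in CREX, where CREX replicate 3 fell within the EX range. Elovl3 was upregulated in the averaged CR effect (log2 fold change 0.89, SE 0.22, adjusted p = 0.0099), a call kept in all 23 alternative settings. The pairwise log2 fold changes of 0.95 (SE 0.40, adjusted p = 0.156) and 0.83 (SE 0.22, adjusted p = 0.056) did not pass on their own, and the second passed without CREX replicate 3 (adjusted p = 0.0046).

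Counted over the 10 members, CR against control gave 3 downregulated DEGs (Ucp1, Prdm16 and Ebf2) and 0 upregulated DEGs, beside 6.86% and 3.87% of the 13323 genes tested by edgeR. The median log2 fold change of the members was -0.83 beside 0.00 over all genes. The groups did not overlap for 5 of the 10 members, a state that held for 33.4% of all genes. CREX against EX gave 3 downregulated DEGs (Ucp1, Prdm16 and Adrb3) and 0 upregulated DEGs, beside 2.63% and 1.86% of 13251 genes, with a median of -0.42 beside 0.00 over all genes and no overlap for 3 members beside 17.7% of all genes. The averaged CR effect gave 5 downregulated members (Ucp1, Prdm16, Ppargc1a, Ebf2 and Adrb3) and 1 upregulated member (Elovl3), beside 7.83% and 3.96% of 13922 genes. An unadjusted p under 0.05 was found for 4 members in CR against control, beside 35.8% of all genes, and for 5 members in CREX against EX, beside 25.6%.

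**Figure D2:**
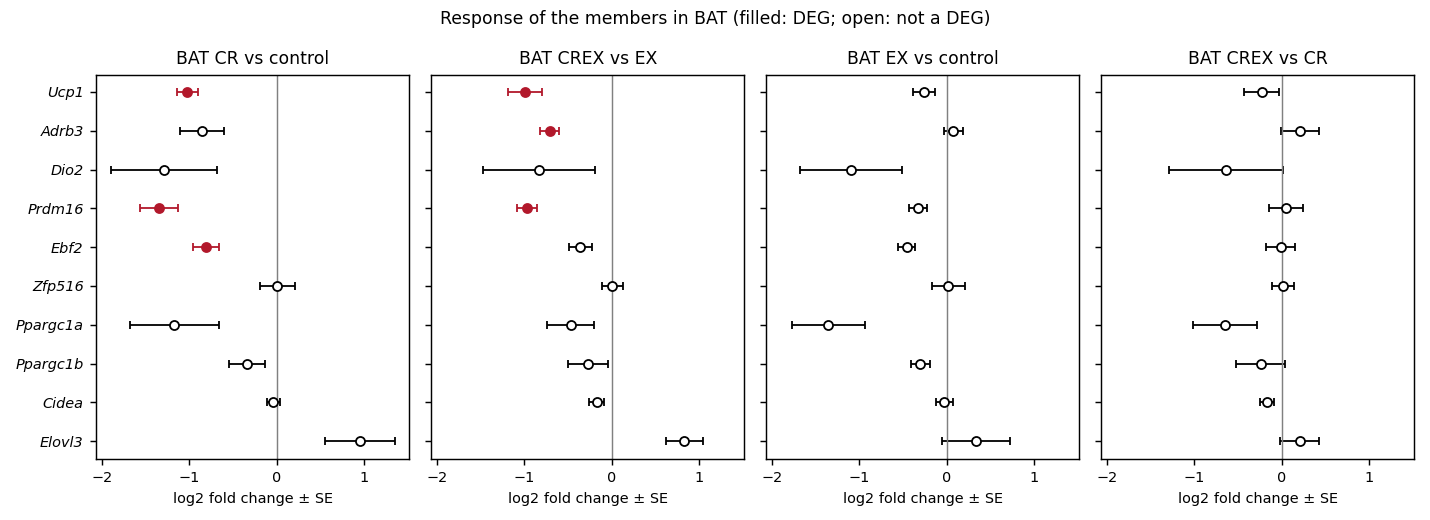
log2 fold change ± SE (x axis) of the 10 members (y axis) in the 4 pairwise comparisons of BAT groups; filled red symbols are DEGs and open symbols are not. Filled symbols occur only in the CR comparisons, at log2 fold changes between -1.35 and -0.71, while the EX comparisons hold open symbols only.

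EX gave no member DEG. In EX against control edgeR called 0 of 10 members, beside 0% of 13407 genes. 4 members had an unadjusted p under 0.05 (Prdm16 at a log2 fold change of -0.33, Ppargc1a at -1.35, Ppargc1b at -0.30 and Ebf2 at -0.46), as did 7.25% of all genes, and the smallest adjusted p was 0.345. The libraries did not overlap for 2 members (Prdm16 and Ebf2, with all EX libraries below control) beside 8.1% of all genes. In CREX against CR edgeR called 0 members beside 0.00763% of 13112 genes, with 0 members under an unadjusted p of 0.05 and a smallest adjusted p of 0.663, and 0 members failed to overlap beside 5.15% of all genes. DESeq2 called 0 members in both. The interaction of CR and EX called 0 members beside 0% of 13922 genes by edgeR, with 0 members under an unadjusted p of 0.05 and 0 called by DESeq2. Ucp1 in EX stood at a log2 fold change of -0.26 against control (SE 0.12, adjusted p = 0.703).

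Muscle transcripts varied widely between the BAT libraries and are set beside these results. The 15 muscle fibre markers summed to 49.3 to 823 CPM in control, 60.2 to 1723 in CR, 53.6 to 5083 in EX and 1196 to 7676 in CREX, and no marker was at 0 in a whole group. None of the 15 was a DEG in CR against control or in CREX against EX by edgeR. Of these 15 markers, 0 were lower in CR against control (median log2 fold change 1.14) and 4 in CREX against EX (median 0.21). A muscle score, the mean log2(CPM + 1) of these markers, ran from 0.744 to 5.33 in control, 1.52 to 6.51 in CR, 0.969 to 8.08 in EX and 5.86 to 8.60 in CREX. CR replicates 1 and 2, with scores of 1.52 and 2.16, held 2063 and 1887 CPM of Ucp1. CR replicates 3 and 4, with scores of 6.51 and 5.41, held 2583 and 1871 CPM. The difference between these pairs was not tested.

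Over the 15 BAT libraries Ucp1 and the muscle score had a Pearson r of -0.23 (permutation p = 0.401, adjusted over 10 members 0.707) and a Spearman rho of -0.21 (permutation p = 0.452, adjusted 0.871), and r was -0.07 without the 2 libraries farthest from the median score. Prdm16 had r = -0.17 (permutation p = 0.531, adjusted 0.707) and rho = -0.22 (permutation p = 0.426, adjusted 0.871), and r was 0.13 without those 2 libraries. Cidea was the member most closely tied to the score, with r = -0.69 (permutation p = 0.0042, adjusted 0.042) and rho = -0.61 (permutation p = 0.019, adjusted 0.190). Its r was -0.53 without those 2 libraries and -0.61 on deviations from group means. On these deviations r was 0.22 for Ucp1 and 0.16 for Prdm16. The permutations did not keep libraries within their groups, so r over all libraries and its p include differences between groups. The other 7 members had adjusted permutation p of 0.707 or more for r. The scores left a gap between 2.37 and 5.33, and within the 10 libraries above it r was -0.09 for Ucp1 (exact permutation p = 0.807), 0.01 for Prdm16 (exact p = 0.971) and -0.53 for Cidea (exact p = 0.116). The relation of Cidea to the score did not pass within that range (rho -0.37, exact permutation p = 0.296), and the smallest adjusted p over the 6 coefficients was 0.699. The 5 libraries below the gap were too few for a correlation. With the score as a covariate in edgeR, the DEGs in CR against control again numbered 3 members, and those in CREX against EX numbered 4, with Elovl3 added (log2 fold change 0.95, adjusted p = 0.015). Restricted to libraries with a score under 4 (CR replicates 1 and 2 against control replicates 2 and 3), Adrb3 (-0.90, adjusted p = 0.024) and Ppargc1b (-0.68, adjusted p = 0.038) were DEGs as well. The share of all genes called in these fits is not given here, so the counts are not read as results about the members. All CREX libraries scored above 4, so CREX against EX has no fit restricted to scores under 4.

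**Figure D3:**
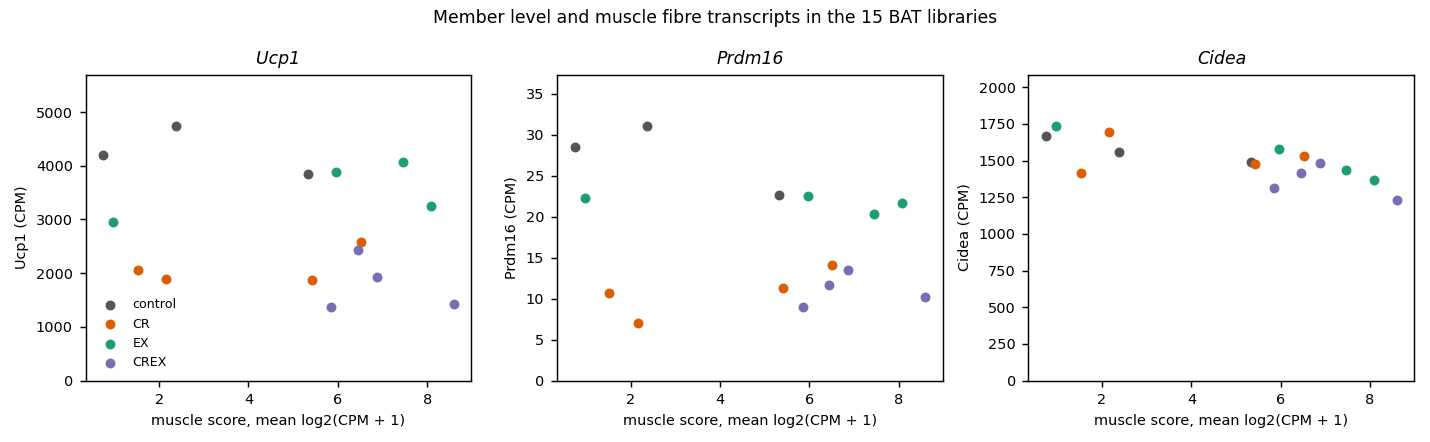
Ucp1, Prdm16 and Cidea in CPM (y axis, linear from 0) against the muscle score (x axis, mean log2(CPM + 1) of 15 muscle fibre markers) in the 15 BAT libraries, coloured by group. Libraries of restricted mice hold low Ucp1 and Prdm16 at scores from 1.52 to 8.60. Cidea lies between 1235 and 1739 CPM, with a Pearson r to the score of -0.69 over the 15 libraries. Within the 10 libraries of score 4 or more its r is -0.53.

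Markers of other cells in BAT are set beside these results. Over all genes, 6.86% were downregulated and 3.87% upregulated in CR against control, and 2.63% and 1.86% in CREX against EX. The 5 fibroblast and preadipocyte markers (Pdgfra, Dpt, Col1a1, Dcn and Pi16) summed to 172 to 213 CPM in control, 117 to 156 in CR, 189 to 571 in EX and 136 to 150 in CREX, with 2 of 5 downregulated in CR against control (Dpt and Col1a1) and 1 of 5 in CREX against EX (Dpt). The 5 macrophage markers summed to 46.8 to 50.6, 22.0 to 38.2, 47.5 to 80.7 and 24.2 to 50.4 CPM in the same order, with 2 of 5 downregulated in CR against control (Lyz2 and Mrc1) and 0 of 5 by edgeR in CREX against EX. The 5 endothelial markers summed to 291 to 328, 212 to 262, 258 to 307 and 221 to 255 CPM, with 0 of 5 called by edgeR in either. The 4 B cell markers were near the limit of counting, at sums of 1.11 to 1.97, 0.174 to 0.247, 0.960 to 1.66 and 0.0798 to 0.355 CPM. In the CR comparisons 1 of 4, Cd79a, passed the filter on low counts, and in CREX against CR 0 of 4 did. Cd79a thus passed only through the freely fed groups, and its downregulated calls in both CR comparisons are not read as a result. Lrrn4, the 1 of 4 mesothelial markers tested, was upregulated in CR against control (log2 fold change 1.38). It stood at 0.85 in CREX against EX, where it was not a DEG. The other mesothelial markers, Msln, Upk3b and Krt19, had medians of 0, 0 and 0.0473 CPM over the BAT libraries. These genes were named after their values were seen. No marker of the fibroblast, macrophage and endothelial lists was at 0 in a whole group. The part of these cells in the results for Prdm16, Ebf2 or any other member was not tested.

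Of the 10 white and 6 beige fat markers, 8 stayed below 1 CPM in every BAT library. The white fat genes Tcf21 and Wt1 were at 0 in every library, and Hoxc9 and Hoxc10 did not exceed 0.0473 and 0.0434 CPM. The white list summed to 72.2 to 80.9 CPM in control, 78.1 to 98.7 in CR, 84.7 to 115 in EX and 107 to 134 in CREX, and its most abundant genes were Retn, Npr3 and Slc7a10, with medians of 47.2, 20.2 and 8.96 CPM. Of its 6 tested genes, 4 were lower in CR against control (median log2 fold change -0.37) and 4 in CREX against EX (median -0.46). The amino acid transporter gene Slc7a10 was upregulated in CR against control (log2 fold change 1.19, adjusted p = 0.017) and in CREX against EX (1.35, adjusted p = 0.019). In CREX against EX, Retn, which encodes the adipokine resistin, was upregulated (0.81, adjusted p = 0.017) and Npr3, the natriuretic peptide clearance receptor gene, was downregulated (-0.71, adjusted p = 0.0042). Of the beige markers, Tmem26, Tnfrsf9, Cited1 and Tbx1 did not exceed 0.0946, 0.289, 0.371 and 0.732 CPM, so the list rested on Slc36a2 and P2rx5, which classical brown fat also expresses. The list summed to 626 to 698 CPM in control, 414 to 531 in CR, 535 to 580 in EX and 443 to 547 in CREX, with P2rx5 downregulated in CR against control (log2 fold change -0.91, adjusted p = 1.1e-04) and in CREX against EX (-0.67, adjusted p = 0.013). The sympathetic genes Th, Dbh and Slc6a2, whose RNA lies mainly in distant cell bodies, did not exceed 0.0826, 0.0434 and 0.137 CPM.

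Other genes that mark brown adipocytes moved in both directions under CR. Of a list of 20 such markers, all tested, 3 fell and 1 rose as DEGs in CR against control (median log2 fold change -0.16), and 2 fell and 1 rose in CREX against EX (median -0.15). Over all genes, 6.86% were downregulated and 3.87% upregulated in the first comparison, and 2.63% and 1.86% in the second. S100b, an adipocyte-derived factor that promotes sympathetic nerve growth, went from 48.1 ± 13.1 CPM in control (SD, n = 3) to 17.9 ± 2.21 in CR (n = 4) and from 41.9 ± 3.46 in EX (n = 4) to 18.1 ± 1.94 in CREX (n = 4), with log2 fold changes of -1.42 (adjusted p = 0.0016) and -1.21 (adjusted p = 2.8e-04). Fabp3, a fatty acid binding protein of oxidative tissues, changed by -1.28 (adjusted p = 0.0062) and -1.11 (adjusted p = 0.024). Acot2, a mitochondrial acyl-CoA thioesterase, was upregulated by 0.68 (adjusted p = 0.0018) and 0.72 (adjusted p = 0.032). The other downregulated DEG in CR against control was Clstn3 (-0.69, adjusted p = 0.018), named after its value was seen. Mpzl2 had adjusted p of 0.0043 and 0.046 but log2 fold changes of 0.43 and 0.49, under the 1.5-fold limit.

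The adrenergic and cyclic AMP genes around Adrb3 gave 4 downregulated and 0 upregulated DEGs of 33 tested (36 listed) in CR against control, with a median of -0.08, and 1 and 0 in CREX against EX, with a median of -0.09. Over all genes the downregulated DEGs made up 6.86% and 2.63%, so that the 1 of 33 was close to that share. Arrb1, the β-arrestin gene, fell in both, by log2 fold changes of -1.30 (SE 0.09, adjusted p = 2.2e-05) and -0.82 (SE 0.11, adjusted p = 0.0038). Gnas, which encodes the stimulatory G protein subunit, went from 2377 ± 172 CPM in control to 1574 ± 95.1 in CR (log2 fold change -0.59, adjusted p = 5.6e-04), and its value in CREX against EX was -0.37 (adjusted p = 0.080). The adenylyl cyclase gene Adcy5 (-1.82, adjusted p = 0.0014) and the phosphodiesterase gene Pde4b (-2.18, adjusted p = 0.0042) were downregulated in CR against control, at levels under 12 CPM. In CREX against EX their groups overlapped, with log2 fold changes of -0.42 (adjusted p = 0.364) and -1.01 (adjusted p = 0.273). Gnai1, an inhibitory G protein subunit gene named after its values were seen, stood at 0.39 (adjusted p = 0.013), under the 1.5-fold limit, and at 0.29 (adjusted p = 0.053).

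The other transcription factors and cofactors of brown fat gave 1 upregulated and 2 downregulated DEGs (Pprc1 and Hlx, named after their values were seen) of 35 tested (38 listed) in CR against control, with a median of -0.20, and 2 and 0 in CREX against EX, with a median of -0.13. The counts in CR against control lay below the 3.87% of all genes upregulated and the 6.86% downregulated. In CREX against EX, the 2 upregulated and 0 downregulated of 35 stood beside 1.86% and 2.63% of all genes. Klf15, a glucocorticoid and fasting responsive factor, was upregulated in CR against control (log2 fold change 0.92, SE 0.12, adjusted p = 9.6e-04) and stood at 0.22 (adjusted p = 0.486) in CREX against EX. Irf4, a fasting responsive partner of PGC-1α, was upregulated in CREX against EX (1.68, SE 0.27, adjusted p = 0.013) and stood at -0.48 (adjusted p = 0.732) in CR against control, where its 3 control libraries spread from 9.44 to 115 CPM. Esrra, an orphan nuclear receptor gene of mitochondrial metabolism, had log2 fold changes of 0.34 (adjusted p = 0.0054) and 0.13 (adjusted p = 0.440), under the 1.5-fold limit. Cebpd, named after its values were seen, was upregulated in CREX against EX (0.99, adjusted p = 0.044) and stood at 0.61 (adjusted p = 0.088) in CR against control. Ehmt1, a histone methyltransferase that partners PRDM16, had log2 fold changes of 0.49 (adjusted p = 0.0020) and 0.35 (adjusted p = 0.043), under the 1.5-fold limit. Nrf1 stood at -0.50 (adjusted p = 0.021), also under the limit, and at 0.03 (adjusted p = 0.898). Ebf1 stood at 0.14 (adjusted p = 0.691) and at -0.42 (adjusted p = 0.053). Of the 35 genes tested, 23 were lower in CR against control and 22 in CREX against EX, most of them not DEGs.

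Dio2 makes the active thyroid hormone, and 2 other genes of its pathway are given here. Thra, a thyroid hormone receptor gene, had a log2 fold change of -0.58 (adjusted p = 2.2e-04) in CR against control, under the 1.5-fold limit, and -0.15 (adjusted p = 0.382) in CREX against EX. The lipogenic target gene Thrsp was upregulated in CR against control (0.76, SE 0.10, adjusted p = 6.8e-04). In CREX against EX it stood at 0.38 (SE 0.26, adjusted p = 0.410), and the groups overlapped.

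Per length, with the exon union of GENCODE vM21 as gene length, Ucp1 was the most abundant member in BAT at a mean of 1732 CPM per kb over all libraries, followed by Cidea at 1340, Elovl3 at 42.4, Adrb3 at 42.2, Ppargc1b at 19.2, Dio2 at 12.8, Ppargc1a at 5.38, Ebf2 at 4.93, Prdm16 at 1.83 and Zfp516 at 0.903. The annotation used for counting is not given in the sources used here, so these lengths are approximate. In control libraries Ucp1 stood at 2606 CPM per kb and Cidea at 1410, whereas in CREX libraries they stood at 1093 and 1222, a gap smaller than the spread of Ucp1 between CREX libraries. Elovl3 and Adrb3 were close only as means over all libraries, and their order depended on the group. In control libraries Adrb3 stood at 52.9 CPM per kb and Elovl3 at 25.8, whereas in CREX libraries they stood at 33.9 and 57.5. The EX means had the same order as control, and the CR means the same order as CREX.

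The genes whose log2 CPM ran most like that of Ucp1 over the 15 BAT libraries, of 13921 other genes, were Ppp1r9b (r = 0.967), Hoxc5 (0.960), Carhsp1 (0.956), Add3 (0.954) and Atpaf2 (0.952). Hoxc5 shows the pattern, with means of 15.4 CPM in control, 7.89 in CR, 13.4 in EX and 8.18 in CREX. Prdm16 ranked 60 (r = 0.912), followed among the members by Ebf2 (0.761, rank 852), Dio2 (0.728, rank 1111), Ppargc1b (0.701, rank 1312), Adrb3 (0.653, rank 1720), Cidea (0.502, rank 3013), Ppargc1a (0.480, rank 3200), Zfp516 (-0.052, rank 7370) and Elovl3 (-0.613, rank 11899). The 15 libraries share the CR grouping. On deviations from the group means, r with Ucp1 was 0.683 for Ppargc1b, 0.634 for Dio2, 0.564 for Prdm16, 0.320 for Elovl3, 0.176 for Cidea, 0.143 for Ebf2, 0.012 for Zfp516, -0.240 for Ppargc1a and -0.269 for Adrb3, and 0.781 to 0.895 for the 5 genes most like Ucp1.

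In SkM the thermogenic members were nearly silent. Ucp1 had at most 3 counts in any of the 14 SkM libraries (0.138 CPM in control replicate 1, 0.0932 CPM in EX replicate 4 and 0 in the other 12). In control mice, BAT held at least 30538-fold more Ucp1 and at least 366-fold more Elovl3 than the level of 3 counts per SkM library. Adrb3 stood at 157 to 212 CPM in BAT control and at 0 to 0.322 CPM (0 to 7 counts) in SkM control. These 3 genes did not pass the filter on low counts in SkM and are left out of the count that follows. Of the other 7 members, 6 were higher and 1 was lower by edgeR in BAT against SkM of control mice, beside 29.8% and 30.2% of 13797 genes tested. Log2 fold changes were 10.32 for Cidea, 7.44 for Dio2, 3.94 for Ebf2, 2.54 for Prdm16, 2.16 for Ppargc1b and 1.19 for Ppargc1a. Zfp516 was the exception at -1.06 (SE 0.19, adjusted p = 3.3e-04). The call for Ppargc1a (adjusted p = 0.047) was lost in 8 of 13 alternative settings, among them without BAT control replicate 1 (1.08) or 3 (0.85) and without SkM control replicate 1 (1.06), 2 (1.20), 3 (1.11) or 4 (1.39).

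The members called under CR in SkM were Ppargc1b and Dio2, but Dio2 passed the filter on low counts only through the freely fed groups. Ppargc1b measured 13.4, 20.1, 15.8 and 21.0 CPM in SkM control and 5.88, 8.38 and 7.64 in CR. It measured 16.2, 18.8, 19.9 and 16.9 CPM in EX and 6.41, 4.15 and 3.53 in CREX, and libraries of restricted and freely fed mice did not overlap. It was a downregulated DEG in CR against control (log2 fold change -1.26, SE 0.18, adjusted p = 0.0018) and in CREX against EX (-1.94, SE 0.19, adjusted p = 0.0015), in all 14 alternative settings of each.

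Dio2 in SkM was close to the limit of counting, at 0.552, 0.977, 0.588 and 0.707 CPM in control, 0.395, 0.119 and 0.229 in CR, 1.58, 1.13, 0.452 and 1.54 in EX and 0.374, 0.0411 and 0.278 in CREX. It held 12 to 21 counts in control and 10 to 35 in EX, against 3 to 9 in CR and 1 to 9 in CREX. Restricted and freely fed groups did not overlap, but the filter on low counts kept Dio2 only because of its freely fed libraries. Its log2 fold changes were -1.51 (SE 0.42, adjusted p = 0.040) in CR against control and -2.32 (SE 0.60, adjusted p = 0.035) in CREX against EX. The first call was lost without CR replicate 2 (-1.17, adjusted p = 0.134), CR replicate 3 (-1.46, 0.106) or control replicate 2 (-1.32, 0.109), 3 (-1.58, 0.071) or 4 (-1.52, 0.072), and the second without CREX replicate 2 (-1.83, 0.101) or 3 (-2.48, 0.085) or EX replicate 1 (-2.14, 0.090), 2 (-2.33, 0.085) or 4 (-2.17, 0.081).

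These 2 genes were the downregulated members of 7 tested in each SkM comparison. Over all genes, 5.32% of 13173 were downregulated in CR against control and 5.17% of 13112 in CREX against EX. Dio2 entered that count only through its freely fed libraries, so only Ppargc1b is read against these shares. Ucp1, Elovl3 and Adrb3 did not pass the filter on low counts in SkM. Ppargc1a held 25.9 ± 7.17 CPM in SkM control (SD, n = 4), 30.0 ± 6.46 in CR (n = 3), 29.2 ± 5.35 in EX (n = 4) and 45.0 ± 29.9 in CREX (n = 3), with log2 fold changes of 0.22 (adjusted p = 0.518) and 0.63 (adjusted p = 0.369) under CR. The second value rested on CREX replicate 3, at 77.6 CPM against 38.5 and 19.0, and was -0.03 without it. EX gave 0 member DEGs by edgeR in freely fed mice (1 member, Zfp516, with an unadjusted p under 0.05, as had 6.85% of all genes; DEGs made up 0.0775% of 12907 genes) and 0 in restricted mice (1 member, Ppargc1b, with an unadjusted p under 0.05, as had 3.65% of all genes; DEGs made up 0% of 13068 genes), and DESeq2 called 0 in both.

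**Figure D4:**
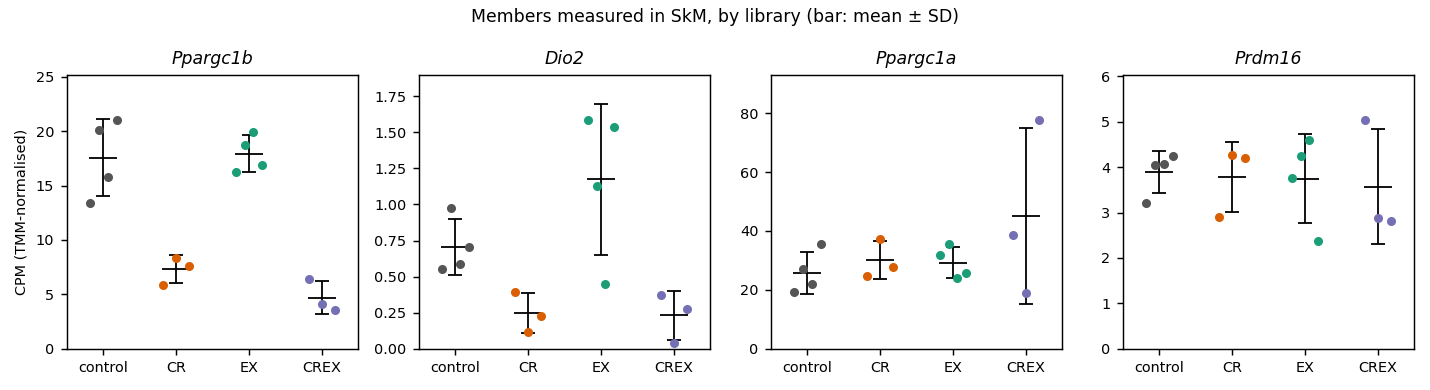
TMM-normalised CPM (y axis, linear from 0, a separate scale per gene) of Ppargc1b, Dio2, Ppargc1a and Prdm16 in the SkM groups; each point is 1 library and the bars give mean ± SD. Ppargc1b lies at 3.53 to 8.38 CPM in restricted and 13.4 to 21.0 CPM in freely fed mice, whereas Prdm16, which separated the diets in BAT, overlaps across all 4 groups.

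The CR effect was compared directly between the tissues in 1 edgeR fit over both, which treated the BAT and SkM libraries as independent, a comparison added after the data were seen. In sedentary mice Prdm16 responded more strongly in BAT, with a difference of -1.30 on the log2 scale (SE 0.29, adjusted p = 0.015) between -1.35 in BAT and -0.03 in SkM. It was 1 of 10 members called, beside 6.29% of 14369 genes, and in trained mice the difference for Prdm16 was -0.89 (SE 0.29, adjusted p = 0.084). Ppargc1b differed in the other direction, with 1.67 (SE 0.33, adjusted p = 0.014) in trained mice, 1 of 10 members called beside 4.57% of 14410 genes, and 0.94 (SE 0.30, adjusted p = 0.071) in sedentary mice, where it passed without BAT CR replicate 2 (1.12, adjusted p = 0.0092) or SkM control replicate 1 (1.05, 0.046), with DESeq2 (0.016) and with at least 10 counts in every library (0.048). Ebf2 in sedentary mice stood at -0.85 (SE 0.27, adjusted p = 0.069) and passed without BAT CR replicate 3 (-0.97, 0.017) or SkM CR replicate 1 (-1.05, 0.018), with DESeq2 (0.036) and with at least 10 counts in every library (0.049). The difference was not read for Ucp1, Elovl3 and Adrb3, which did not pass the filter on low counts in SkM alone.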

How the data were processed

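The deposited values are expected counts per gene symbol, not normalized: per the methods, the authors trimmed reads with trim-galore, aligned them to mm10 with STAR (2.7.10a in the submitters' processing notes) and quantified them with RSEM, whose version differs between methods and notes. The annotation was not stated. Of 24770 symbols, 27 had become dates and 2 were duplicated, none a member. Expected counts (6.11% not whole) were rounded.

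Each comparison was fitted on its own groups with edgeR 4.0.16 (robust quasi-likelihood, TMM, filterByExpr, Benjamini-Hochberg over all genes) in R 4.3.3. The averaged CR effect and the interaction used all BAT groups. SE is the log2 fold change divided by the square root of F. Correlations used 100000 permutations (two-sided). The procedure was tested on simulated data. Members and lists were chosen with earlier results of these data known. All members are named, with the 5 genes most like Ucp1. Other list genes came from the up to 4 of smallest p per list in each CR comparison, and not all of these are named. Further genes of these lists are marked as named after their values were seen. Part of the thyroid hormone list is not reported here, nor are its counts. Genes of marker lists were named by abundance, or as defining markers after their values were seen. Alternatives were RLE, DESeq2 1.42.0, other filters, a replicate block, a fit on all groups, the muscle score as covariate and leaving out each library. The labels do not say that same-numbered mice were paired. The sources used here do not say that each library came from 1 mouse, so p-values measure the spread between libraries, which may be technical.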

Additional observations from a re-analysis of the deposited data

Results flagged for a closer look

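Of 48 groups of 4 libraries of a member with unequal values, 5 held a library far from the others by Dixon's criterion, which chance gives in about 1 in 20 groups. Elovl3 in BAT was 73.3 CPM in CR replicate 1, below the other CR libraries (104 to 109 CPM), and 70.1 CPM in CREX replicate 3, below the other CREX libraries (all at 128 CPM). CREX replicate 3 also had the highest muscle score of all BAT libraries, 8.60. In SkM, Ucp1 was 0.138 CPM in control replicate 1 and 0.0932 CPM in EX replicate 4 with 0 in the other libraries of these groups, values at or below 3 counts. Adrb3 was 2.26 CPM in SkM EX replicate 1, where Adipoq stood at 12.8 CPM against 0.140 to 0.271 CPM in the other EX libraries. SkM CREX replicate 1, the library with the next highest Adrb3, held Adipoq at 14.8 CPM. SkM CR replicates 1 and 3 also held Adipoq, at 9.92 and 13.4 CPM, with Adrb3 at 0.395 and 0.382 CPM. The part of fat RNA in these libraries was not tested.

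The response to CR differed between BAT and SkM, by an edgeR test of the difference itself, for Prdm16 in sedentary mice (-1.30 on the log2 scale) and for Ppargc1b in trained mice (1.67). Each was 1 of 10 members, beside 6.29% and 4.57% of all genes called. By the same test Prdm16 did not pass in trained mice (adjusted p = 0.084), nor Ppargc1b in sedentary mice (0.071).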

How the results depend on the processing

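No called member reversed its direction under any alternative. Ucp1, Prdm16 and Ebf2 in CR against control, Prdm16 and Adrb3 in CREX against EX, and Ucp1, Prdm16, Adrb3 and Elovl3 in the averaged CR effect were DEGs under every alternative tried. Counted over the members, CR against control in BAT gave 3 DEGs, and 5 with the replicate block (Ppargc1a at an adjusted p of 0.0021 and Elovl3 at 0.040 added) as well as 5 without the libraries of muscle score 4 or more, a setting chosen after seeing the data. For EX against control the latter setting leaves 1 EX library that is assumed to vary like the 2 control libraries. Log2 fold changes there were -0.61 for Ucp1 and -2.35 for Dio2. In SkM, CR against control gave 2, but 3 with no filter on low counts (Elovl3 added at an adjusted p of 0.030) and 1 with at least 10 counts in every library, with the replicate block or with 1 fit on all groups, and 1 to 2 when single libraries were left out, and CREX against EX gave 2, but 1 with at least 10 counts in every library or with the replicate block, and 1 to 2 when single libraries were left out. The tissue difference in the CR effect gave 1 in sedentary mice, but 3 with at least 10 counts in every library, 3 with DESeq2 and 1 to 2 when single libraries were left out. In trained mice it gave 1, and 2 with DESeq2. Same-numbered libraries deviated together with a mean r of -0.302 over 3 pairs in CR against control and 0.123 over 4 pairs in CREX against EX. No comparison had every pair above 0.1. So few pairs cannot settle whether the replicate numbers pair the libraries. The share of all genes called under each alternative is not given here. Changes in the member counts are therefore not read as results about the members, and their cause was not tested. Dio2 in SkM CR and CREX lay at 1 to 9 counts, where counting error is large, and it passed the filter only through the freely fed groups.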
